A study of Mus musculus with 6 samples.

Results

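Chemokines are small secreted proteins that direct the movement of leukocytes, and 10 of them made by macrophages are described here: Ccl2, Ccl3, Ccl4, Ccl6, Ccl7, Ccl9, Ccl12, Ccl24, Cxcl2 and Cxcl16. They were taken by gene symbol from a table of 13886 genes, and all 10 were present and were tested among 13777 genes. The RNA came from sorted liver macrophages of CDA-HFD-fed mice. This high-fat diet lacks choline and gives amino acids in place of protein, and it is used to model steatohepatitis with fibrosis. There were 3 libraries from Egr2fl/fl mice, whose Egr2 alleles are flanked by loxP sites and which carry no Cre, and 3 from Lyz2cre/+.Egr2fl/fl mice, which carry the same alleles and 1 Cre allele at Lyz2, a gene of myeloid cells. By the study's text the mice were male, the genotypes were littermates, and the gate took CD11b+ Ly6G- Ly6C-low F4/80+ cells. The weeks on diet and the age at collection are not given in the labels of these libraries, and since the controls have no Cre, effects of Cre and of the loss of Egr2 cannot be told apart. Replicate numbers name separate biological replicates.

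CC chemokines such as Ccl2 act through CCR receptors on monocytes, macrophages, lymphocytes and eosinophils, while Cxcl2 acts through CXCR2, mainly on neutrophils. In the injured liver, resident and recruited macrophages are a main source of these signals, and the Ccl2 and CCR2 pair is known for bringing monocytes into the organ. Egr2, an early growth response protein, binds DNA through zinc fingers and regulates transcription. The question that runs through the libraries is whether macrophages sorted from mice with and without myeloid Egr2 differ in the chemokine transcripts they hold.

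The levels are in TPM, a read-based measure that corrects for gene length and for the library total. Egr2 itself was at 123, 120 and 126 TPM in the Egr2fl/fl libraries against 9.08, 9.64 and 10.5 TPM after deletion, with a log2 difference of -3.53 ± 0.08 (SE, limma adjusted p = 5.751e-06). The libraries held at least 6497770 to 8569062 reads. Of all tested genes, 4.38% were higher and 1.87% were lower in Lyz2cre/+.Egr2fl/fl libraries at a limma adjusted p below 0.05. Among markers of macrophage states, 11 of 12 Kupffer cell markers were higher in Lyz2cre/+.Egr2fl/fl libraries (Cd5l, Il18bp, Slc40a1 and Cd207 had the smallest p), and 10 of 12 markers of hepatic lipid-associated macrophages were lower (Itgax, Anxa1, Mmp12 and Cd9). Of 12 pan-macrophage markers, 4 were higher and 1 was lower, the latter being Lyz2, the locus that carries Cre. Of 24 endothelial markers 22 were higher, and their summed level was 148 to 183 TPM in Egr2fl/fl and 729 to 830 TPM in Lyz2cre/+.Egr2fl/fl libraries. Among the 22, Tek and Emcn had Egr2fl/fl means of 0.803 and 0.945 TPM and were named after their values were seen. Tek and Emcn passed the filter of a mean of 1 TPM only through the Lyz2cre/+.Egr2fl/fl libraries. The part that these shifts play in the chemokine differences was not tested.

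Ccl6 and Ccl9, both CC chemokines, fell with the deletion, 1 chemokine, Ccl7, rose, and the other 7 did not pass the test. The share of all tested genes that passed was 4.38% in the higher direction, 1.87% in the lower direction and 6.24% in either. The median log2 difference was 0.14 over the 10 chemokines and 0.04 over all tested genes. The genotypes did not overlap for 3 of the 10, against 25.2% of all tested genes. In bulk RNA, fewer cells that make a transcript and less transcript per cell cannot be told apart, which holds for each difference given here.

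**Figure D1:**
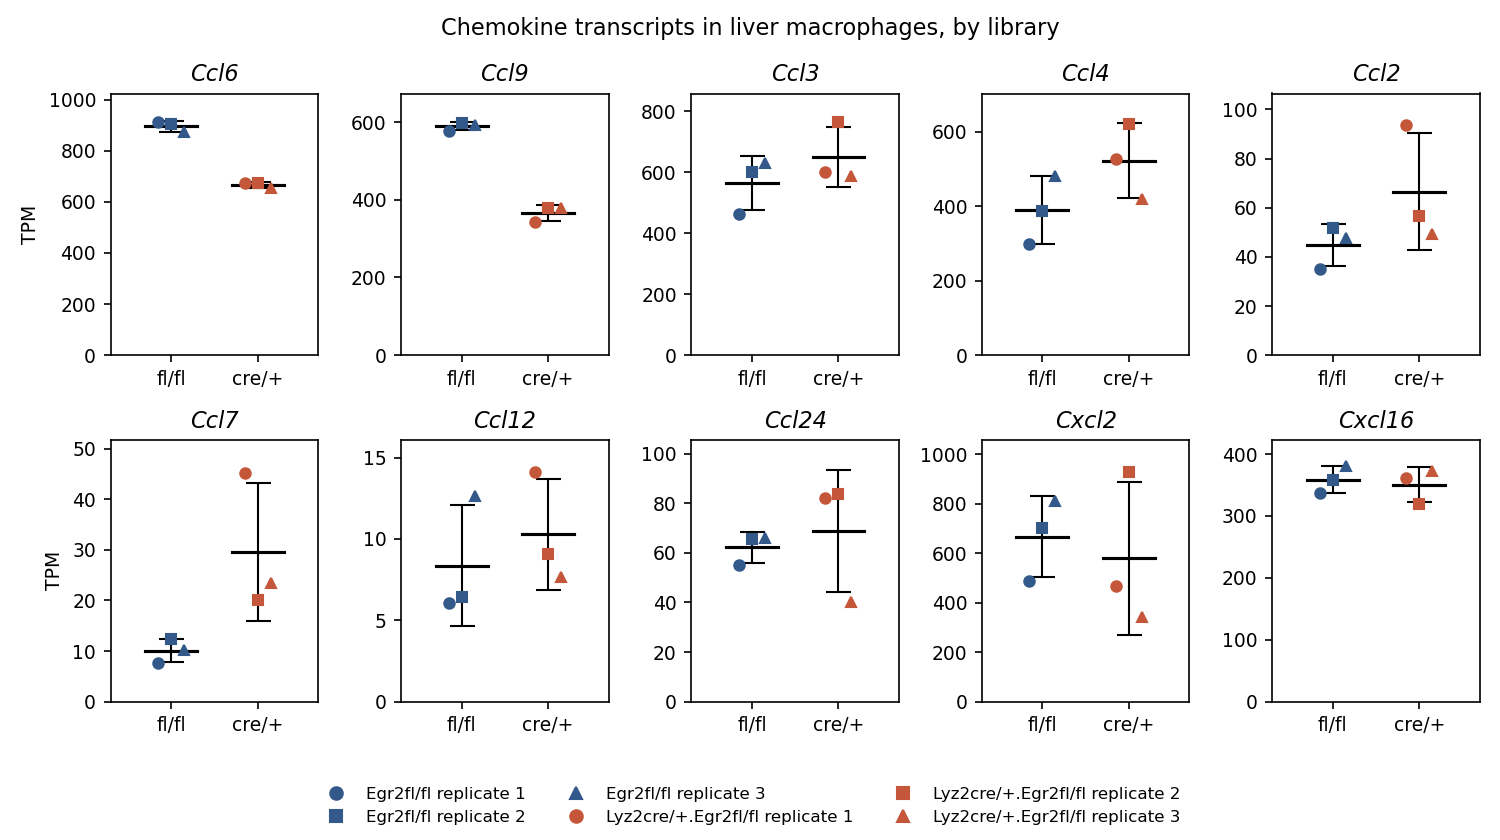
Level of each of the 10 chemokines in TPM (vertical axes, from 0, with a scale of their own) in 3 Egr2fl/fl libraries (fl/fl) and 3 Lyz2cre/+.Egr2fl/fl libraries (cre/+). Points are libraries, the horizontal bar is the mean and the whiskers are 1 SD. The genotypes are apart for Ccl6, Ccl9 and Ccl7 and overlap in the other 7 panels.

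Ccl6 and Ccl9 are ligands of the receptor CCR1 and have no direct human counterpart. They lie side by side on chromosome 11 of GRCm38, both on the minus strand, with Ccl9 at positions 83572919 to 83578636 and Ccl6 at positions 83587882 to 83593087 in GENCODE vM21. Each has 4 exons, and 9245 bases separate them. Their coding sequences were 70.6% identical over the aligned bases, and the longest stretch shared by their transcripts was 25 bases. Over all pairs of the 10 chemokines the coding identity ran from 61.6% (Ccl6 and Ccl12) to 78.1% (Ccl7 and Cxcl16). Gaps were left out of these values, and pairs with the much longer Cxcl16 (741 coding bases) ran from 68.3% to 78.1%. Without Cxcl16, only Ccl2 and Ccl7 (72.4%) and Ccl3 and Ccl4 (71.4%) had a higher identity than Ccl6 and Ccl9. No other pair shared a longer stretch than Ccl6 and Ccl9. Since both moved the same way, the windows around their start sites are shown, from 250 bases before to 50 bases after the start in RefSeq on GRCm38.p6. The Ccl6 window is chr11:83593038-83593337 and the Ccl9 window is chr11:83578587-83578886, both read on the minus strand from 5′ to 3′. Capitals mark stretches of at least 8 bases that both windows hold, in the same order.
Ccl6: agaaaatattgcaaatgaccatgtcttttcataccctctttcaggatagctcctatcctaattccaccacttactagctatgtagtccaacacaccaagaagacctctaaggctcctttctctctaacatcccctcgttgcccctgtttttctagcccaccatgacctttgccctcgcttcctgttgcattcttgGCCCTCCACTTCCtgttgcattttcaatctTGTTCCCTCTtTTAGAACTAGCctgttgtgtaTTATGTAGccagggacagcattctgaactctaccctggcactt
Ccl9: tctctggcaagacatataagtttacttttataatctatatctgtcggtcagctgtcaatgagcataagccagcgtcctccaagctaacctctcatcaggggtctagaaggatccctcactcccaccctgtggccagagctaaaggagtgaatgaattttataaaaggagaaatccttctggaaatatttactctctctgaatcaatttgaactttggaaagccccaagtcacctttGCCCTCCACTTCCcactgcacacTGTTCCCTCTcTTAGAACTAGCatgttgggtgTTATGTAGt
The capitals cover 42 bases of each window and lie near the start site, but not at matching distances from it. In Ccl6 they lie mostly before the start site and in Ccl9 mostly after it. Over the whole alignment 170 of 239 aligned bases were the same, and the longest shared stretch had 13 bases. Among the 10 pairs that the 5 chemokines with a window can form, this pair had the highest identity (71.1%), and the other pairs lay between 57.0% and 66.0%.

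Ccl6 was the most abundant of the chemokines in Egr2fl/fl cells. Its level was 913, 904 and 872 TPM in the Egr2fl/fl libraries against 674, 673 and 653 TPM in the Lyz2cre/+.Egr2fl/fl libraries. Every Egr2fl/fl library was above every Lyz2cre/+.Egr2fl/fl library, and within a genotype the libraries lay close together. The means were 896 ± 21.3 and 666 ± 11.7 TPM (SD, n = 3 each), 1.34-fold higher in Egr2fl/fl. The log2 difference was -0.43 ± 0.04 (SE), with a 95% interval from -0.52 to -0.33 and a limma adjusted p of 0.002117. The gene overlaps E230016K23Rik on the other strand, and whether counting used strand is not given in the sources used here.

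Ccl9 fell further. It was at 578, 598 and 592 TPM in Egr2fl/fl and at 343, 378 and 378 TPM in Lyz2cre/+.Egr2fl/fl libraries. The gap between the genotypes was wider than for Ccl6, and the lowest value was in Lyz2cre/+.Egr2fl/fl replicate 1. The mean was 1.61-fold higher in Egr2fl/fl (589 ± 10.3 against 366 ± 20.3 TPM), and the log2 difference was -0.69 ± 0.05 with a 95% interval from -0.81 to -0.56 (limma adjusted p = 0.0008456). Both chemokines passed in each of the 17 alternative settings tried, between -0.48 and -0.40 for Ccl6 and between -0.74 and -0.64 for Ccl9.

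The difference between the falls of Ccl9 and Ccl6 can be written as a ratio within each library, which restates the values above and adds no support to them. The ratio of Ccl9 to Ccl6 was 0.633, 0.662 and 0.679 in Egr2fl/fl and 0.509, 0.562 and 0.579 in Lyz2cre/+.Egr2fl/fl libraries. The groups did not overlap, and the exact two-sided permutation p was 0.1, the smallest that 3 libraries against 3 can give. The ratio was chosen after the values were seen. Together the pair made up 46.9%, 40.7% and 37.5% of the summed level of the 10 chemokines in Egr2fl/fl libraries and 31.7%, 27.3% and 35.9% in Lyz2cre/+.Egr2fl/fl libraries. The summed level itself overlapped between the genotypes, with 3180 to 3905 TPM in Egr2fl/fl and 2873 to 3854 TPM in Lyz2cre/+.Egr2fl/fl.

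Ccl3 and Ccl4, which attract monocytes and T cells, lie beyond Ccl6 on the same chromosome, with Ccl3 at 83647844 to 83649355 on the minus strand and Ccl4 at 83662584 to 83664683 on the plus strand. Between Ccl6 and Ccl3 there are 54756 bases. Ccl3 was at 462, 600.0 and 629 TPM in Egr2fl/fl and at 599.5, 765 and 588 TPM in Lyz2cre/+.Egr2fl/fl libraries. The groups overlapped, Egr2fl/fl replicate 1 being the lowest and Lyz2cre/+.Egr2fl/fl replicate 2 the highest. The log2 difference of 0.21 ± 0.14 did not pass (95% interval -0.13 to 0.55, limma adjusted p = 0.4994).

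The same libraries were at the ends for Ccl4. It was at 298, 389 and 481 TPM in Egr2fl/fl and at 527, 621 and 419 TPM in Lyz2cre/+.Egr2fl/fl libraries, with overlap through the lowest Lyz2cre/+.Egr2fl/fl and the highest Egr2fl/fl library. The log2 difference was 0.43 ± 0.20 (95% interval -0.03 to 0.90, limma adjusted p = 0.289). As a share of the 10 chemokines, Ccl3 and Ccl4 took 23.9%, 26.8% and 28.4% in Egr2fl/fl and 35.1%, 35.9% and 35.1% in Lyz2cre/+.Egr2fl/fl libraries. The shares did not overlap, and they move with the fall of Ccl6 and Ccl9, since all shares add up to the same whole. The ratio of Ccl4 to Ccl3 overlapped between the genotypes (exact two-sided permutation p = 0.2).

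**Figure D2:**
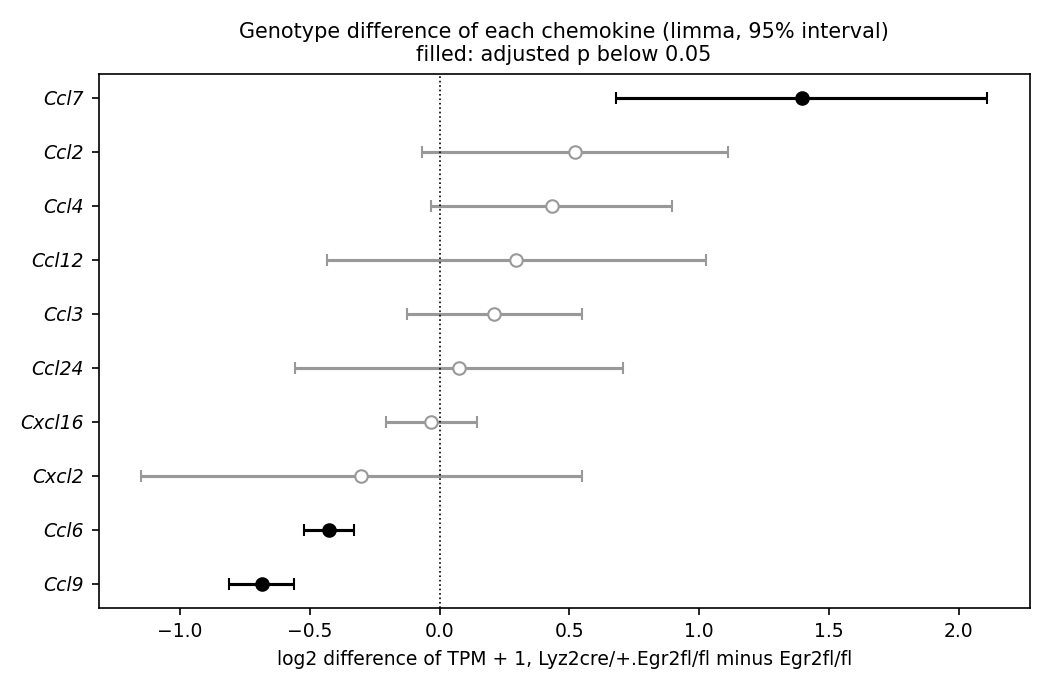
Log2 difference of TPM + 1, Lyz2cre/+.Egr2fl/fl minus Egr2fl/fl (horizontal axis), for the 10 chemokines, from limma on 6 libraries. Points are estimates and bars are 95% intervals, filled where the adjusted p over all tested genes is below 0.05. Ccl9 (-0.69) and Ccl6 (-0.43) lie below 0 with narrow bars, Ccl7 (1.40) lies above 0 with a wide bar, and the other bars include 0.

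Ccl2, Ccl7 and Ccl12 are the monocyte chemoattractants, all ligands of CCR2. They form a second group on chromosome 11, on the plus strand and with 3 exons each, with Ccl2 at 82035571 to 82037453, Ccl7 at 82045712 to 82047525 and Ccl12 at 82101845 to 82103400. Ccl2 and Ccl7 are 8258 bases apart, and the longest stretch that their transcripts share is 23 bases. Ccl7 and Ccl12 had the lowest means of the 10 in both genotypes, and Ccl2 came next above them.

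Ccl7 was at 7.73, 12.4 and 10.2 TPM in Egr2fl/fl and at 45.1, 20.1 and 23.4 TPM in Lyz2cre/+.Egr2fl/fl libraries. Every Lyz2cre/+.Egr2fl/fl library was above every Egr2fl/fl library, and Lyz2cre/+.Egr2fl/fl replicate 1 was far above the other two. The mean was 2.92-fold higher in Lyz2cre/+.Egr2fl/fl (29.6 ± 13.6 against 10.1 ± 2.35 TPM), and the log2 difference was 1.40 ± 0.30 with a 95% interval from 0.68 to 2.11 (limma adjusted p = 0.04246). These values rest on few reads, at least 21, 26 and 24 in Egr2fl/fl and 100, 43 and 55 in Lyz2cre/+.Egr2fl/fl libraries. The call lay close to the threshold: the difference was positive in all 17 alternative settings and passed in 6 of them, with limma adjusted p between 0.02493 and 0.1261. Without Egr2fl/fl replicate 1, 2 or 3 the adjusted p was 0.1261, 0.07057 and 0.1124, and without Lyz2cre/+.Egr2fl/fl replicate 1 or 3 it was 0.05573 and 0.08784, so that only the fit without Lyz2cre/+.Egr2fl/fl replicate 2 kept the call (0.04388). The log2 difference without Lyz2cre/+.Egr2fl/fl replicate 1, the highest library, was 1.05.

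Ccl2 had its highest value in the same library as Ccl7. It was at 35.2, 51.8 and 47.6 TPM in Egr2fl/fl and at 93.8, 56.7 and 49.1 TPM in Lyz2cre/+.Egr2fl/fl libraries, and the lowest Lyz2cre/+.Egr2fl/fl library was below the highest Egr2fl/fl one. The log2 difference was 0.52 ± 0.25 and did not pass (95% interval -0.07 to 1.11, limma adjusted p = 0.313). The gene overlaps Gm17268 on the other strand. For Ccl12, a mouse chemoattractant, the levels were 6.04, 6.42 and 12.6 TPM against 14.1, 9.07 and 7.63 TPM. The groups overlapped widely, on at least 9 to 21 reads a library, and the log2 difference was 0.30 ± 0.31 (95% interval -0.44 to 1.03, limma adjusted p = 0.6788).

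Ccl7 was higher relative to Ccl2 in each Lyz2cre/+.Egr2fl/fl library than in any Egr2fl/fl library. This ratio restates the values above, on the same few Ccl7 reads, and adds no support to them. The ratio of Ccl7 to Ccl2 was 0.220, 0.240 and 0.214 in Egr2fl/fl and 0.481, 0.355 and 0.477 in Lyz2cre/+.Egr2fl/fl libraries. The ratio of the highest Lyz2cre/+.Egr2fl/fl library for Ccl7 was close to that of replicate 3, and the groups did not overlap (exact two-sided permutation p = 0.1, the smallest possible, ratio chosen after the values were seen). For Ccl12 to Ccl2 the genotypes overlapped (exact two-sided permutation p = 0.7). The summed level of the 3 chemoattractants was 48.9, 70.7 and 70.4 TPM in Egr2fl/fl and 153, 85.8 and 80.2 TPM in Lyz2cre/+.Egr2fl/fl libraries.

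**Figure D3:**
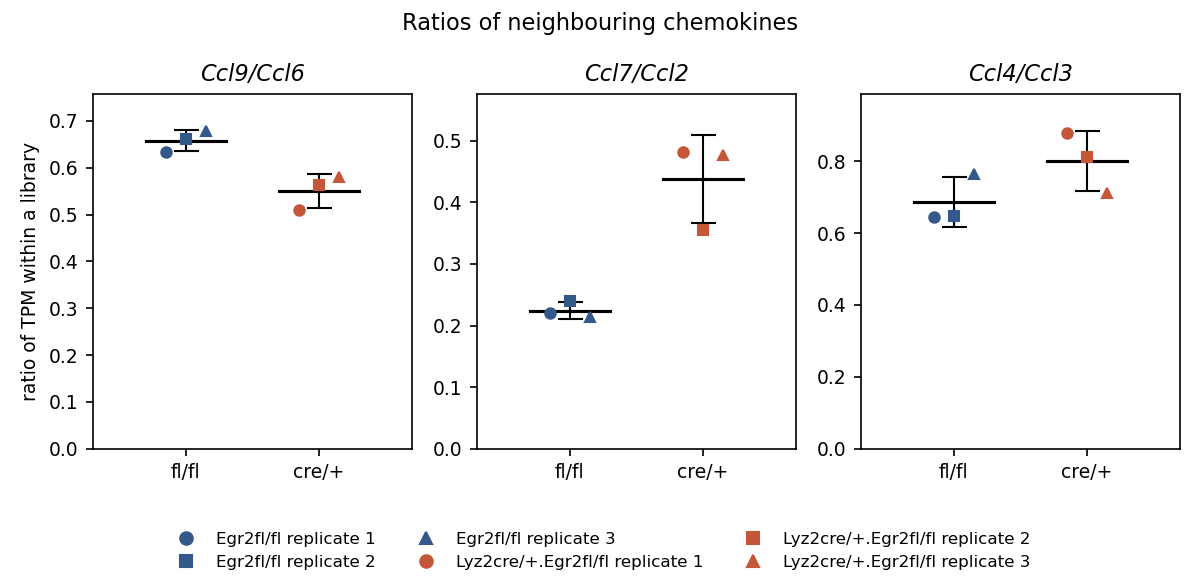
Ratio of the TPM of 2 neighbouring chemokines within a library (vertical axes, from 0), for Ccl9 to Ccl6, Ccl7 to Ccl2 and Ccl4 to Ccl3, in 3 Egr2fl/fl (fl/fl) and 3 Lyz2cre/+.Egr2fl/fl libraries (cre/+). Points are libraries, the horizontal bar is the mean and the whiskers are 1 SD. The genotypes are apart in the first 2 panels (0.633 to 0.679 against 0.509 to 0.579, and 0.214 to 0.240 against 0.355 to 0.481) and overlap in the third.

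Other genes of the same chromosome 11 groups did not pass. In the Ccl2 group, Ccl8 was at a mean of 1.99 TPM in Egr2fl/fl and 2.14 TPM in Lyz2cre/+.Egr2fl/fl (limma adjusted p = 0.9596). In the other group, Ccl5, which attracts T cells and lies next to Ccl9, was at 47.5 ± 15.0 against 33.7 ± 3.98 TPM (limma adjusted p = 0.3782).

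Cxcl2 attracts neutrophils and lies on chromosome 5 at 90903871 to 90905938 on the plus strand. It is a known target of NF-kB, and its start site window is shown because it held matches to the NF-kB motif. The window is chr5:90903649-90903948 on the plus strand, from RefSeq on GRCm38.p6. Capitals mark the 2 matches to GGNNTTTCC, 1 that starts 96 bases and 1 that starts 77 bases before the RefSeq start site. That site lies downstream of the GENCODE start at 90903871.
Cxcl2: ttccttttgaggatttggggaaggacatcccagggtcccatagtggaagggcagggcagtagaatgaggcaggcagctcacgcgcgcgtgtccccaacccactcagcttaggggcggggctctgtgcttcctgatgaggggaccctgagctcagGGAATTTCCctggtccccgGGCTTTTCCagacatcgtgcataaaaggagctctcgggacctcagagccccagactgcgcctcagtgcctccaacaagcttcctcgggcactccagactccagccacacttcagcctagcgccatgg
Of 32851 RefSeq windows of the same 300 bases, 5.82% held this motif on either strand. Windows were found for 5 of the 10 chemokines (Cxcl2, Ccl12, Ccl9, Ccl6 and Ccl3), and Ccl9 was the other one with a match, on the minus strand 35 bases before the start, together with 1 match to the AP-1 motif TGANTCA 53 bases before it (7.81% of all windows). Neither of the 2 motifs overlaps the other there. GCGNGGGCG, the Egr motif, was in none of the 5 windows and in 5.55% of all windows. A match is a run of letters and not evidence of binding.

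Cxcl2 was the most variable of the abundant chemokines. It was at 488, 701 and 813 TPM in Egr2fl/fl and at 467, 929 and 342 TPM in Lyz2cre/+.Egr2fl/fl libraries. The highest and the lowest library were both Lyz2cre/+.Egr2fl/fl, and the Egr2fl/fl values lay between them. The log2 difference of -0.30 ± 0.36 had a 95% interval from -1.15 to 0.55 and did not pass (limma adjusted p = 0.7195), an interval that holds a fall as well as a rise. The transcript shares a stretch of 110 identical bases with that of Cxcl3, another CXCR2 ligand, and how reads that match both were counted is not given in the sources used here.

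The inflammatory gene Tnf and the CXCR2 ligands Cxcl1 and Cxcl3 also varied within each genotype. Tnf was at 123, 194 and 278 TPM in Egr2fl/fl and at 120, 252 and 75.6 TPM in Lyz2cre/+.Egr2fl/fl libraries. As for Cxcl2, replicate 3 was the highest of the Egr2fl/fl libraries, and replicate 2 was the highest and replicate 3 the lowest of the Lyz2cre/+.Egr2fl/fl libraries. Cxcl3 and Cxcl1 were also highest in those replicates within each genotype. These 3 genes were picked for display after their values were seen. Other listed inflammatory genes went both ways in Lyz2cre/+.Egr2fl/fl replicate 2, also picked after their values were seen. Tnfaip3 was highest there among the Lyz2cre/+.Egr2fl/fl libraries (315, 570 and 299 TPM), and Il1b was lowest there (1615, 1296 and 1665 TPM). For Ccl6, Ccl9 and Ccl7 the deviation of a library from the gene's mean had 1 sign in each genotype. It lay between -0.26 and 0.22 log2 units for Ccl6, between -0.48 and 0.32 for Ccl9 and between -1.36 and 1.19 for Ccl7.

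**Figure D4:**
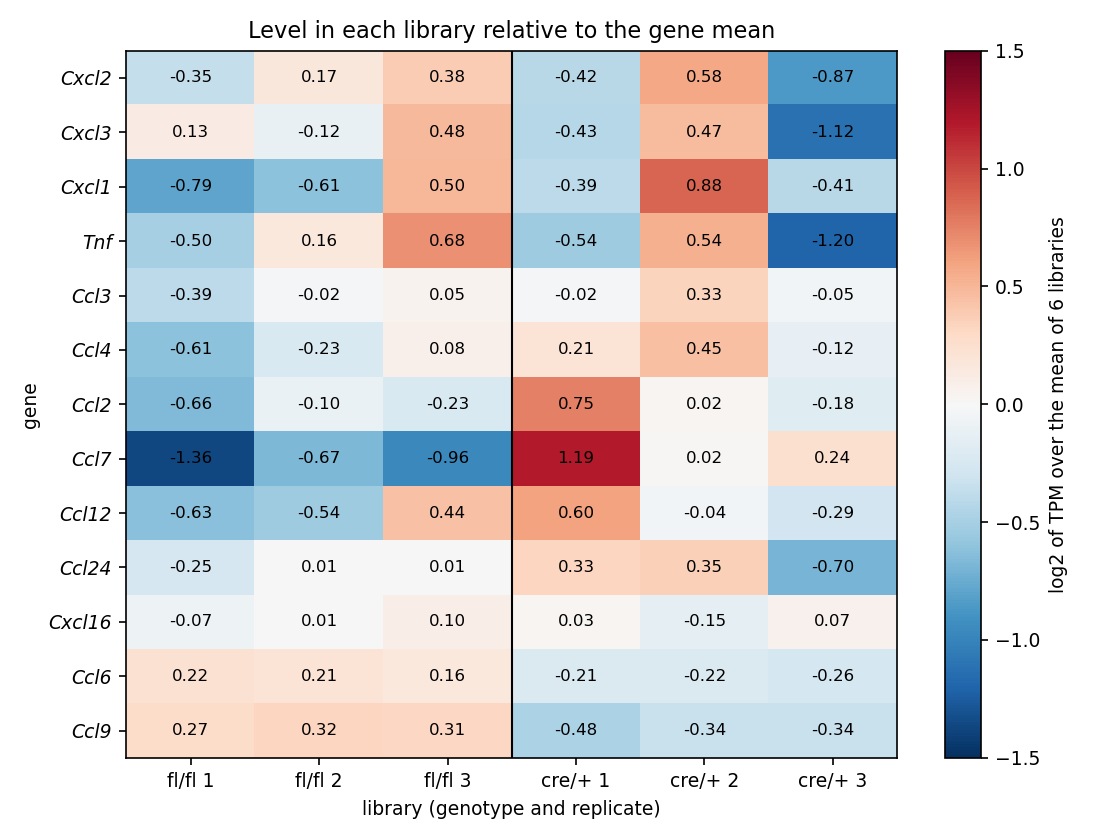
Log2 of the TPM of each library over the mean of the 6 libraries (colour and printed value), for the 10 chemokines and for Cxcl1, Cxcl3 and Tnf (rows), in Egr2fl/fl (fl/fl) and Lyz2cre/+.Egr2fl/fl libraries (cre/+, columns with the replicate number). Ccl6, Ccl9 and Ccl7 have 1 sign in each genotype. Cxcl2 goes from -0.87 to 0.58 and Tnf from -1.20 to 0.68 with both signs in each genotype.

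Ccl24, or eotaxin-2, attracts eosinophils through CCR3 and is known as a gene of alternatively activated macrophages. It lies on chromosome 5 at 135569937 to 135573049 on the minus strand. Its level was 55.1, 65.7 and 65.8 TPM in Egr2fl/fl and 82.1, 83.6 and 40.3 TPM in Lyz2cre/+.Egr2fl/fl libraries. The Lyz2cre/+.Egr2fl/fl libraries lay on both sides of the Egr2fl/fl libraries, with replicate 3 below and the other two above. The log2 difference was 0.07 ± 0.27 (95% interval -0.56 to 0.70, limma adjusted p = 0.9257), and its sign changed in 3 of the 17 alternative settings. Without a library in turn it was between -0.10 and 0.41, the highest value being that without Lyz2cre/+.Egr2fl/fl replicate 3.

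Cxcl16 is a membrane-bound chemokine and scavenger receptor for oxidised lipid, and its shed form binds CXCR6 on T and NKT cells. It lies on chromosome 11 at 70453983 to 70459984 on the minus strand and has 5 exons. It was the steadiest of the 7 that did not pass, with 337, 357 and 381 TPM in Egr2fl/fl and 361, 320 and 372 TPM in Lyz2cre/+.Egr2fl/fl libraries. The ranges overlapped almost wholly, and the log2 difference of -0.03 ± 0.07 had the narrowest interval of these 7, from -0.21 to 0.14 (limma adjusted p = 0.8683). It overlaps Zmynd15 on the other strand, which was at 59.1 TPM in Egr2fl/fl and 68.6 TPM in Lyz2cre/+.Egr2fl/fl (limma adjusted p = 0.546).

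The order of the levels shifted below Ccl6. In Egr2fl/fl the order by mean TPM was Ccl6, Cxcl2, Ccl9, Ccl3, Ccl4, Cxcl16, Ccl24, Ccl2, Ccl7 and Ccl12. Ccl6 stood above Cxcl2 in all libraries, while neighbours from Cxcl2 down to Cxcl16 overlapped, as did Ccl7 and Ccl12. In Lyz2cre/+.Egr2fl/fl the order was Ccl6, Ccl3, Cxcl2, Ccl4, Ccl9, Cxcl16, Ccl24, Ccl2, Ccl7 and Ccl12. There Ccl6 overlapped Ccl3, Ccl9 was below Ccl4 in all libraries and overlapped Cxcl16, and Ccl24 overlapped Ccl2. Over all 6 libraries Ccl6 ranked 178 and Ccl12 ranked 8732 by mean TPM among the 13886 genes, and 6 of the 10 were at 100 TPM or more in every library.

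Of 28 other chemokine ligands looked up, 14 were in the table, with a median log2 difference of -0.08. Of these, 0 were higher and 1 was lower, beside 4.38% and 1.87% of all tested genes. At an unadjusted p below 0.05, which 13.1% of all tested genes reached in the higher direction, 6.5% in the lower and 19.6% in either, 1 was higher and 1 was lower. The one that fell was Ccl22, which attracts T cells through CCR4, from 9.03 ± 1.46 to 4.48 ± 0.78 TPM (log2 difference -0.87 ± 0.17, limma adjusted p = 0.03208). Cxcl13, a B cell attractant, was at 1.82 ± 1.39 and 6.49 ± 1.72 TPM and did not pass (limma adjusted p = 0.06783), nor did Cxcl14 (243 and 210.0 TPM, adjusted p = 0.2568).

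Of 6 receptors of the 10 chemokines, 4 were in the table and 1 passed, beside 6.24% of all tested genes. Ccr3, the receptor of Ccl24, was at 5.31, 5.62 and 3.94 TPM in Egr2fl/fl and at 18.9, 12.4 and 11.2 TPM in Lyz2cre/+.Egr2fl/fl libraries, without overlap (log2 difference 1.32 ± 0.22, limma adjusted p = 0.01488). It was also the only one of 10 markers of eosinophils, basophils and mast cells in the table. Ccr1 was at 61.0 ± 9.21 and 45.2 ± 11.5 TPM (adjusted p = 0.2608) and Ccr2 at 279 ± 23.1 and 241 ± 48.0 TPM (adjusted p = 0.4641), and neither passed in limma. Of 5 atypical receptors, which bind chemokines without the usual signalling, 3 were in the table. Ackr2, a scavenger of CC chemokines, was higher, at 0.391, 0.127 and 0 TPM in Egr2fl/fl and 2.16, 2.11 and 1.81 TPM in Lyz2cre/+.Egr2fl/fl libraries (limma adjusted p = 0.03364). That call rests on few reads, at least 56 over all libraries. The Egr2fl/fl mean of 0.173 TPM lay below the 1 TPM filter, so Ackr2 entered the test only through the Lyz2cre/+.Egr2fl/fl libraries. Ackr1 (0.542 and 3.00 TPM, adjusted p = 0.0784) and Ccrl2 (603 and 442 TPM, adjusted p = 0.1649) did not pass in limma.

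Proteases that can cut chemokines moved in both directions. Of 7 listed, 6 were in the table, with 1 higher and 2 lower, beside 4.38% and 1.87% of all tested genes. At an unadjusted p below 0.05, 2 were higher and 2 were lower, beside 13.1% and 6.5% of all tested genes. Dpp4, which trims the amino end of many chemokines, was at 2.73 ± 0.65 TPM in Egr2fl/fl and 10.4 ± 0.47 TPM in Lyz2cre/+.Egr2fl/fl (log2 difference 1.62 ± 0.17, limma adjusted p = 0.002656). Macrophage elastase Mmp12 fell from 456 ± 28.0 to 183 ± 24.8 TPM (limma adjusted p = 0.0008456) and Mmp14 fell from 457 ± 55.6 to 336 ± 28.6 TPM (limma adjusted p = 0.04742). Mmp9, at 3.05 and 6.42 TPM, did not pass (limma adjusted p = 0.1428), nor did Adam10 and Adam17, the sheddases of Cxcl16, which were named for that role and not by p.

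Lists of genes of macrophage activation were read beside the 6.24% of all tested genes that passed. Of 22 genes of the NF-kB and inflammatory response 0 were higher and 1 was lower, Bcl2a1b (113 to 81.5 TPM, limma adjusted p = 0.005177), with a median log2 difference of -0.17. At an unadjusted p below 0.05, 3 were higher and 6 were lower, beside 13.1% and 6.5% of all tested genes. Relb, Ptgs2 and Il1b were next by p and did not pass (adjusted p = 0.0658, 0.09811 and 0.1358). Of 13 immediate early genes 0 were higher and 1 was lower, Junb (2446 to 2005 TPM, limma adjusted p = 0.01955), and the median was -0.04. At the unadjusted threshold 2 were higher and 3 were lower. Of 12 genes of alternative activation 2 were higher, the lectin receptors Mrc1 (187 to 331 TPM, limma adjusted p = 0.000547) and Clec10a (23.7 to 35.4 TPM, limma adjusted p = 0.02609). In this list 0 were lower, and the median was -0.02. The other 10 did not pass, among them Arg1, Chil3 and Retnla, which were named after their values were seen. At the unadjusted threshold 3 were higher and 1 was lower.

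Apart from the endothelial markers given above, markers of other cells that can make or draw chemokines were mostly low. The endothelial sum was 148 to 183 TPM in Egr2fl/fl and 729 to 830 TPM in Lyz2cre/+.Egr2fl/fl libraries. Of 11 neutrophil markers 6 were in the table, with 0 higher and 2 lower, S100a9 (3.19 to 0.449 TPM) and S100a8 (6.24 to 1.73 TPM). These calls rest on few reads, at least 17 for S100a9 and 35 for S100a8 over all libraries. S100a9 passed the 1 TPM filter only through the Egr2fl/fl libraries. At an unadjusted p below 0.05, 0 were higher and 3 were lower. The sum of the 6 was 169 to 186 TPM in Egr2fl/fl and 148 to 163 TPM in Lyz2cre/+.Egr2fl/fl libraries. Most of that sum came from Csf3r, which macrophages also make, and Ly6g was not in the table. Of 14 T and NK cell markers 4 were in the table and 1 was lower, Klrb1c (2.42 to 0.356 TPM). Klrb1c had at least 64 reads over all libraries and also passed the filter only through the Egr2fl/fl libraries. The sum of the 4 was 6.78 to 10.4 against 4.33 to 5.32 TPM. Of 8 B cell markers 3 were in the table and 1 was higher (Cd79b), with a sum of 58.1 to 81.6 against 78.0 to 112 TPM. Most of that sum came from Cd79b (37.8 and 57.4 TPM) and Ighm (33.7 and 37.6 TPM). Ighm (limma adjusted p = 0.8764) and Cd79a (1.72 and 1.71 TPM, limma adjusted p = 0.9983) did not pass. Of 6 monocyte, 5 dendritic cell and 8 stellate cell or fibroblast markers in the table, 0 passed in limma, and 2, 2 and 1 had an unadjusted p below 0.05. Of 16 hepatocyte markers 1 was higher (Trf) and 1 was lower (Ass1), with a sum of 1078 to 1736 against 1214 to 1427 TPM, most of it from Trf (859 and 1057 TPM). The highest sum was that of Egr2fl/fl replicate 3, which stood apart in Alb, the albumin gene, with 365 TPM against 117 and 49.1 TPM in the other Egr2fl/fl libraries and 63.2 to 170 TPM in Lyz2cre/+.Egr2fl/fl. Alb was shown after its values were seen. The part of these cells in the chemokine levels was not tested.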

How the data were processed

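Per the labels, directional libraries were made from total RNA of the sorted cells, whereas the study's methods give Nextera XT after SMART-Seq HT for sorted cells in general and keep the directional kit for macrophages sorted on other markers. Which kit made these libraries is therefore uncertain. The authors used Trimmomatic 0.39.0 for adapters, HISAT2 2.2.1 for alignment to GRCm38 (mm10) and featureCounts 2.0.1 for gene counts after duplicates were taken out, and the deposited values are TPM. TPM is relative to the whole library, so that one gene's rise lowers the others, and taking out duplicates may pull down the most abundant transcripts. The table held 13886 genes and sums of 996893 to 997633 per library. For all genes (100%) the values were whole multiples of 1 read within a tolerance of 0.001, and the reads so recovered are lower bounds.

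The genotype in each title set the 2 groups of 3 libraries. The 13777 genes whose mean reached 1 TPM entered limma 3.58.1 (R 4.3.3) as log2(TPM + 1) (trend, no covariates, two-sided, Benjamini-Hochberg over all tested genes, threshold 0.05). On this scale the change of a low gene is understated. For TPM, ± gives the SD over 3 libraries, and for log2 differences the standard error. The limma fit, and no other step, was tested on simulated data with known changes. Alternatives covered the pseudocount, the filter, the scaling, the variance model, the replicate number as a block, omission of each library and voom on recovered reads.

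All 10 chemokines were named whatever their values, and from the other lists up to 4 genes with the smallest p. The members and lists were chosen with earlier results of these data known, so counts over them are descriptions. Other genes, named after their values were seen, are marked as such or are neighbours of a chemokine, and Adam10 and Adam17 were named for their role. Places are from GENCODE vM21, and promoter windows and motifs from RefSeq. The values of 1 listed receptor are not reported here.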

Additional observations from a re-analysis of the deposited data

How the results depend on the processing

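Over the 17 alternatives, the falls of Ccl6 and Ccl9 kept their direction and call, as did that of Egr2, and 2 of the 10 chemokines were called lower in each. The 7 chemokines that did not pass passed in none, and a sign changed in 3 alternatives for Ccl24, 2 for Cxcl16 and 1 for Cxcl2. Ccl7, the 1 chemokine called higher, was positive throughout and lost its call (0 chemokines called higher) in 11. Its log2 difference was 1.14 with a pseudocount of 5 (limma adjusted p = 0.05059), 1.34 with median-of-ratios scaling (0.05611), 1.33 with quantile normalization (0.06017), and 1.40 without trend (0.09148) or with robust variances (0.05738). Leaving out each library gave 1.05 to 1.62 for Ccl7 and 0 or 1 chemokines called higher. The cause was not tested.

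Over all genes, 603 were higher and 257 lower. Without trend 160 were lower, and leaving out each library gave 303 to 437 higher and 136 to 202 lower, with fewer samples in each fit. The share of higher calls was 70.1%, and 62.9% with median-of-ratios scaling. The deviations of same-numbered libraries correlated at -0.026, 0.065 and -0.0062, so the numbers were not taken to pair the samples. With a replicate block 301 genes were higher and 130 lower, Ccl7 was at 1.40 (limma adjusted p = 0.1211), 0 chemokines were called higher and 2 lower. By these correlations, libraries did not each match their own number best.

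Depth limits Ccl7 and Ccl12 most, with at least 21 and 9 reads in their lowest libraries. With 3 libraries per genotype, wide intervals such as that of Cxcl2 leave moderate changes in either direction undetectable. The p-values cover the spread between these libraries. Levels are relative to the library total.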
